A study of Homo sapiens with 9 samples.

Results

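The 10 genes described here encode SR and SR-like splicing factors: SRSF1, SRSF2, SRSF3, SRSF4, SRSF5, SRSF6, SRSF7, SRSF11, TRA2A and TRA2B. They were chosen by symbol from a table of 56541 genes, and all 10 were found in it, each in a single entry, and passed the filter on low counts in both comparisons. RNA was measured in MOLM-13, a human acute myeloid leukaemia cell line whose tissue label is peripheral blood, in 3 groups of 3 libraries. The shCONTROL group was RNA-seq of cells carrying a control hairpin, and the shBCLAF1 group was RNA-seq of cells carrying a hairpin against BCLAF1, an RS-rich nuclear protein that binds RNA. The RIP group was RNA recovered with BCLAF1 by immunoprecipitation from shCONTROL cells. Cells of all groups, controls included, had been kept in doxycycline at 200 ng/µL for 4 days, and 2000000 cells were collected per RNA-seq sample against 15000000 per RIP sample. All 9 libraries were of total RNA and carried the same batch label. The labels name 1 hairpin per group and no mock precipitation, and do not say whether replicates were separate cultures, so p-values here measure the spread between these samples. Fewer cells of a kind and less RNA per cell cannot be told apart in such bulk libraries.

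SR proteins join an RNA recognition motif to a tail rich in arginine and serine (the RS domain). They bind exonic enhancer sequences, recruit the U1 and U2 snRNPs to the neighbouring splice sites, and oppose hnRNP proteins. Kinases of the SRPK and CLK families phosphorylate the RS tail, which sets where the proteins reside, and several members shuttle and help export spliced mRNA through NXF1. SR genes are known to limit their own output by splicing in conserved poison exons, whose transcripts are destroyed by nonsense-mediated decay. A table of counts per gene, as used here, does not separate such transcripts from the coding ones.

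Library totals ran from 25819144 to 36635268 estimated counts. The targeted gene, BCLAF1, stood at 325, 328 and 312 CPM (CPM are counts brought to 1 common library size by TMM scaling, and are the unit of every level below) in shCONTROL and at 115, 125 and 99.9 in shBCLAF1, and the groups did not overlap. In the RIP it stood at 1147, 1059 and 1033. THRAP3, the paralogue of BCLAF1, had log2 fold changes of 0.08 after knock-down (edgeR adjusted p = 0.671) and 0.95 in the RIP. Of 10 myeloid markers, 9 were above 0 in every group and CD14 was listed at 0 in all 9 libraries. The summed level of these markers was 1939 to 2049 CPM in shCONTROL, against 3834 to 4206 with shBCLAF1 and 1665 to 1913 among RIP libraries. LYZ, the lysozyme gene, carried most of that difference, at 671 to 785, 2432 to 2817 and 34.3 to 60.3 CPM in the same order. Without LYZ the sum was 1262 to 1318 CPM in shCONTROL, overlapped it at 1293 to 1402 with shBCLAF1, and was above both at 1619 to 1852 among RIP libraries. Of the 9 myeloid markers tested by edgeR, 4 were higher (LYZ, SPI1, CD33, CD68) and 1 lower (FLT3) after knock-down, and 2 were higher (FLT3, CEBPA) and 3 lower (LYZ, MPO, CSF1R) in the RIP. The part of these markers in the results below was not tested. Of 5 erythroid markers, none was above 0 in the RNA-seq libraries, whereas the RIP libraries held HBA1 and HBA2, summing to 1.24 to 60.3 CPM. HBA2 was at 39.0, 0 and 57.6 CPM in RIP replicates 1, 2 and 3. RIP replicate 2, where HBA2 was at 0, was also the lowest RIP library for 8 of the 10 members, and for 39.2% of all genes tested. Within the RNA-seq groups, shCONTROL replicate 3 and shBCLAF1 replicate 3 were each lowest for 7 of the 10 members, and for 31.5% and 39.8% of all genes tested. What part the HBA2 difference has in the results was not tested. The defining markers of T cells (CD3E, CD3G, CD2, CD8A), B cells (MS4A1, PAX5) and of fibroblasts and epithelium (COL1A1, EPCAM) were listed at 0 throughout. Of the T cell list, CD3D was between 7.71 and 11.9 CPM.

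The stretch upstream of the start site is shown for 4 members, since 2 of them (SRSF1, TRA2B) were lower after BCLAF1 knock-down, 1 (SRSF4) was higher and SRSF3 had the most motif matches. RefSeq (GRCh38.p14) gave such a stretch for 8 of the 10 members, among them SRSF11, which was also lower and is not shown. Each line is the 250 bases before the annotated start, 5′ to 3′ on the gene's strand, and capitals mark the letters of the motifs searched.
SRSF1, chr17:58007247-58007496, minus strand: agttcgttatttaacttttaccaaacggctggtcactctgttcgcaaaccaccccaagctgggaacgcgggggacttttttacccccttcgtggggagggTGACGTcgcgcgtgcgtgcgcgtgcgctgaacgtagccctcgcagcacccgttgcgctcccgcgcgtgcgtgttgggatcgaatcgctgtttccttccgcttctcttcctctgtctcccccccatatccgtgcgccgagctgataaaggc
TRA2B, chr3:185938015-185938264, minus strand: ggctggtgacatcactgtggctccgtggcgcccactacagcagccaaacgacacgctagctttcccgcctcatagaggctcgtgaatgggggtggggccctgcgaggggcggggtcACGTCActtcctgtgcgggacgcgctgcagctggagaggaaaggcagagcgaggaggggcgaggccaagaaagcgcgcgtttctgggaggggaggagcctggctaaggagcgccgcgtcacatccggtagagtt
SRSF4, chr1:29181901-29182150, minus strand: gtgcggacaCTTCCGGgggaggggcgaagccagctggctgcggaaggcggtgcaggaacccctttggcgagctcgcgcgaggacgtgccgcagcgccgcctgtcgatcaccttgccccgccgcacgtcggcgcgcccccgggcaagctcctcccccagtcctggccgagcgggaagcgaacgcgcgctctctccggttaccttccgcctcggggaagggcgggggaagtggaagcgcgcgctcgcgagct
SRSF3, chr6:36594112-36594361, plus strand: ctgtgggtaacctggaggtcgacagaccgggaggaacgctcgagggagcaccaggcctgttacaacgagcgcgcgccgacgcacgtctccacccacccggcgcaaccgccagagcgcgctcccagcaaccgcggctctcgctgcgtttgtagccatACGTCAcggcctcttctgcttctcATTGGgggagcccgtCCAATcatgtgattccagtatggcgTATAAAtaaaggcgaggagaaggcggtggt

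The motifs, chosen after these sequences had been seen, were the CCAAT box, the TATA box with its letters TATAAA, the ETS factor site with its letters CCGGAAG, the core of the cAMP response element with its letters TGACGT, the E-box with its letters CACGTG, and the NRF1 site. Each was searched on both strands, and no matches overlapped. TGACGT was present upstream of SRSF1, SRSF3, SRSF5 and TRA2B, at 150, 94, 50 and 134 bases before the start, against 7.10% of the 35116 windows of the same length. TATAAA, found in 10.7% of windows, lay 30 bases before the SRSF3 start and 27 before one of the annotated SRSF7 starts, and farther up, at 206 bases, before one of the SRSF11 starts. CCGGAAG, in 8.52% of windows, was upstream of SRSF4 and SRSF5. CCAAT occurred at 2 places upstream of SRSF3 and in no other member window, against 32.0% of windows, and no member window held CACGTG or the NRF1 site. SRSF6 had no match. These are matches of letters only, and their part in the knock-down changes was not tested. TGACGT was shared by SRSF1 and TRA2B, which were called lower after knock-down, and by SRSF3 and SRSF5, which did not pass the test. It was absent upstream of both annotated starts of SRSF11, which was also called lower, and upstream of SRSF4, which was called higher.

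The knock-down comparison asks which RNAs change when BCLAF1 is depleted. Most of the SR factors differed little: 9 of the 10 fold changes were no larger than 0.32 in size on the log2 scale. SRSF4 rose to 125% of the control, while SRSF1, TRA2B and SRSF11 fell to 86.4%, 87.9% and 85.1%. SRSF2 had the lowest estimate, 66.0% of the control, but did not pass, since 1 library stood far below the other two. Of the 10 members 1 was higher and 3 were lower by edgeR's quasi-likelihood F-test (a call here means p under 0.05 after Benjamini-Hochberg adjustment over all 16961 genes tested), and over all genes 15.5% were called higher and 16.9% lower, 32.3% in all. The median log2 fold change was -0.08 over the members and 0.02 over all genes. The median size of change was 0.13 over the members and 0.27 over all genes, and genes of like level were not compared. With library totals in place of TMM scaling, 2 members were higher and 2 lower.

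**Figure D1:**
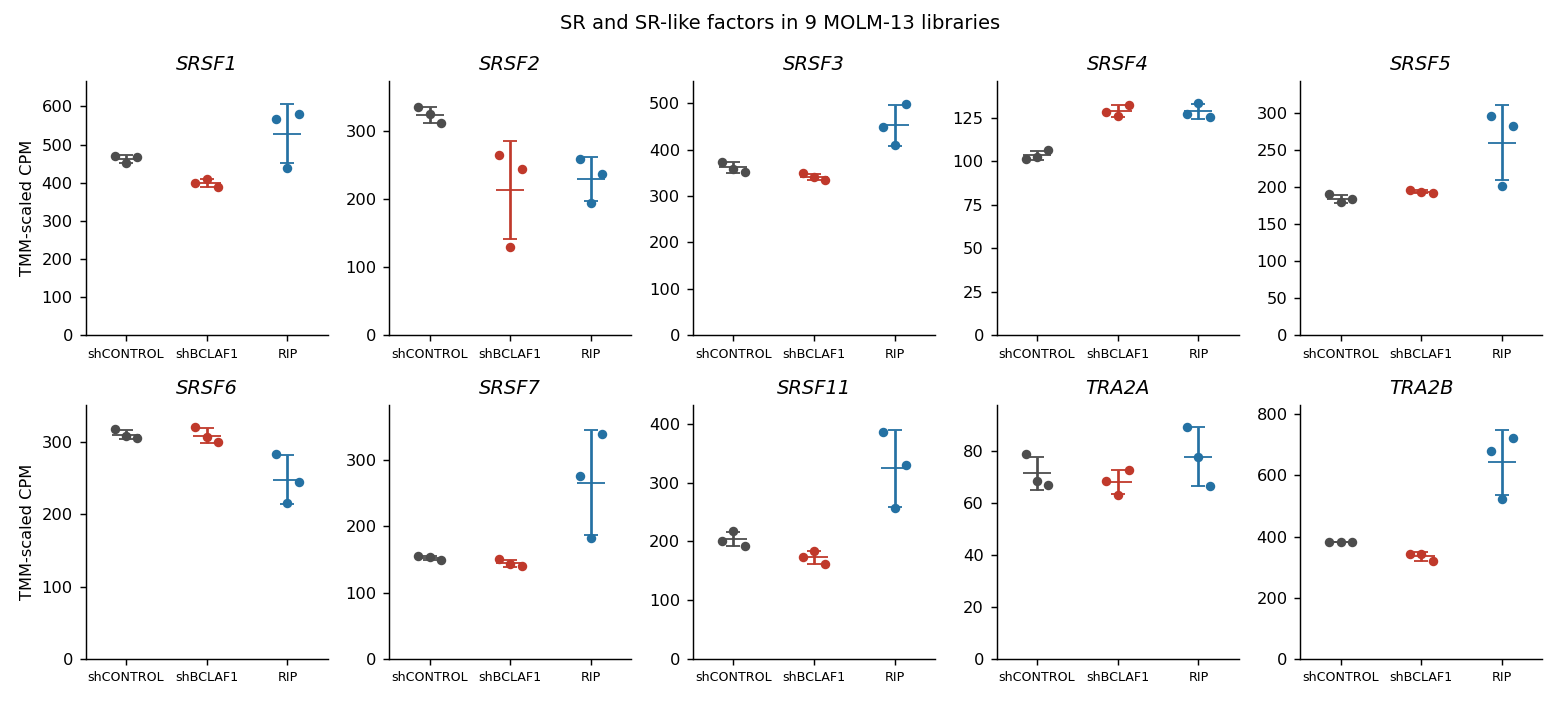
Levels of the 10 SR and SR-like factors in TMM-scaled CPM (vertical axis, from 0) by group, with 1 point per library and the mean and SD of 3 libraries as bars. SRSF4 was 101 to 106 CPM in shCONTROL and 126 to 132 in shBCLAF1, and SRSF2 in shBCLAF1 replicate 2 was at 130.5 CPM, apart from the other two.

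SRSF1 is the prototype SR protein, a shuttling factor with a pair of RNA recognition motifs. Its gene spans chr17:57989038-58007246. Its mRNA stood at 469.8, 451 and 468 CPM in shCONTROL and at 399.7, 408 and 388 in shBCLAF1. All shBCLAF1 libraries were below all shCONTROL libraries, and the log2 fold change was -0.21 (95% interval -0.30 to -0.12, edgeR adjusted p = 0.00683). Leaving out any 1 library kept the call, and a single fit of all 9 libraries ended it (edgeR adjusted p = 0.247).

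SRSF3 and SRSF7 are the small SR proteins that act as adaptors for NXF1 in mRNA export, and SRSF7 also has a zinc knuckle. SRSF3 (chr6:36594362-36605600) measured 374, 358 and 353 CPM in shCONTROL and 349, 341 and 334 in shBCLAF1. These groups did not overlap, yet the log2 fold change of -0.08 (95% interval -0.17 to 0.01) did not pass (edgeR adjusted p = 0.158). SRSF7 (chr2:38743599-38751494) measured 155, 154 and 149 CPM in shCONTROL and 151, 143 and 141 in shBCLAF1, and the groups overlapped. Its log2 fold change was -0.07 (95% interval -0.17 to 0.03, edgeR adjusted p = 0.233). For both genes the interval leaves room for a decrease of at most 0.17 on the log2 scale.

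SRSF2, known as SC35, marks nuclear speckles, and its gene is recurrently mutated in myeloid neoplasms. It lies at chr17:76734115-76737411, where MFSD11 overlaps it, and whether the counting used strand is not given in the sources used here. SRSF2 stood at 335, 326 and 312 CPM in shCONTROL and at 265, 130.5 and 245 in shBCLAF1. Every shBCLAF1 library was below every shCONTROL library, but replicate 2 was far under replicates 1 and 3. The log2 fold change was -0.60 (95% interval -1.21 to 0.02, edgeR adjusted p = 0.126). Without shBCLAF1 replicate 2 it was -0.34 and passed (edgeR adjusted p = 0.0144). SRSF2 held 4938 counts in that library, against 10098 and 8984 in the others of its group. MFSD11 held 804 counts there, against 1560 and 1444, and 1371, 760 and 1630 in shCONTROL, and its log2 fold change was -0.07 (edgeR adjusted p = 0.906).

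SRSF4, SRSF5 and SRSF6, known as SRp75, SRp40 and SRp55, share an arrangement of a canonical and a divergent RNA recognition motif before long RS tails. SRSF4 (chr1:29147743-29181900) measured 101, 102 and 106 CPM in shCONTROL and 128, 126 and 132 in shBCLAF1. The groups stood well apart, with a log2 fold change of 0.32 (95% interval 0.23 to 0.42, edgeR adjusted p = 0.00185), and the call held in all 12 other fits without a minimum fold change, with log2 fold changes from 0.30 to 0.37. It was the sole knock-down call among the members that did. MECR, which overlaps SRSF4, had a log2 fold change of -0.01 (edgeR adjusted p = 0.910).

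SRSF5 (chr14:69767142-69772005) measured 191, 179.9 and 184 CPM in shCONTROL and 196, 193 and 193 in shBCLAF1. The groups did not overlap, the log2 fold change was 0.08 (95% interval -0.01 to 0.16), and it did not pass (edgeR adjusted p = 0.158), except with library totals, where it was 0.13 (edgeR adjusted p = 0.0254). SRSF6 (chr20:43457896-43464243) measured 318, 309 and 305 CPM in shCONTROL and 320.4, 307 and 299.8 in shBCLAF1. The SRSF6 groups overlapped almost fully, with a log2 fold change of -0.0026 (95% interval -0.10 to 0.09, edgeR adjusted p = 0.968), whose sign was positive with library totals (0.05). SRSF4 thus differed from SRSF5 and SRSF6 in that its interval did not meet theirs, a difference that was not tested as such.

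SRSF11, known as p54, is an SR-related protein that contacts U2AF at the 3′ splice site. It spans chr1:70205696-70253052. Its level was 201, 217 and 193 CPM in shCONTROL and 173, 184 and 161 in shBCLAF1, and the groups did not overlap. The log2 fold change was -0.23 (95% interval -0.40 to -0.07), and it was the weakest of the members' calls (edgeR adjusted p = 0.0432). The call was lost without shCONTROL replicate 1, 2 or 3 (edgeR adjusted p = 0.107, 0.123 and 0.0563), without shBCLAF1 replicate 1 or 3 (0.104 and 0.0913), with library totals (0.0767) and in the fit of all 9 libraries (0.336).

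TRA2A and TRA2B, the human homologues of the fly transformer-2 protein, are SR-like activators of exons with GAA-rich enhancers. TRA2B (chr3:185914558-185938014) was the steadiest member in shCONTROL, at 384, 382 and 381 CPM, and stood at 343, 344 and 319 in shBCLAF1. The groups did not overlap, and the log2 fold change was -0.19 (95% interval -0.29 to -0.09, edgeR adjusted p = 0.0162). That call was lost without shCONTROL replicate 1 or 3 (edgeR adjusted p = 0.0556 and 0.0516) and in the fit of all 9 libraries (0.357). TRA2A (chr7:23504780-23531981) measured 78.6, 68.5 and 66.9 CPM in shCONTROL and 68.5, 63.0 and 72.6 in shBCLAF1. The TRA2A groups overlapped, with a log2 fold change of -0.07 (95% interval -0.26 to 0.13, edgeR adjusted p = 0.598).

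**Figure D2:**
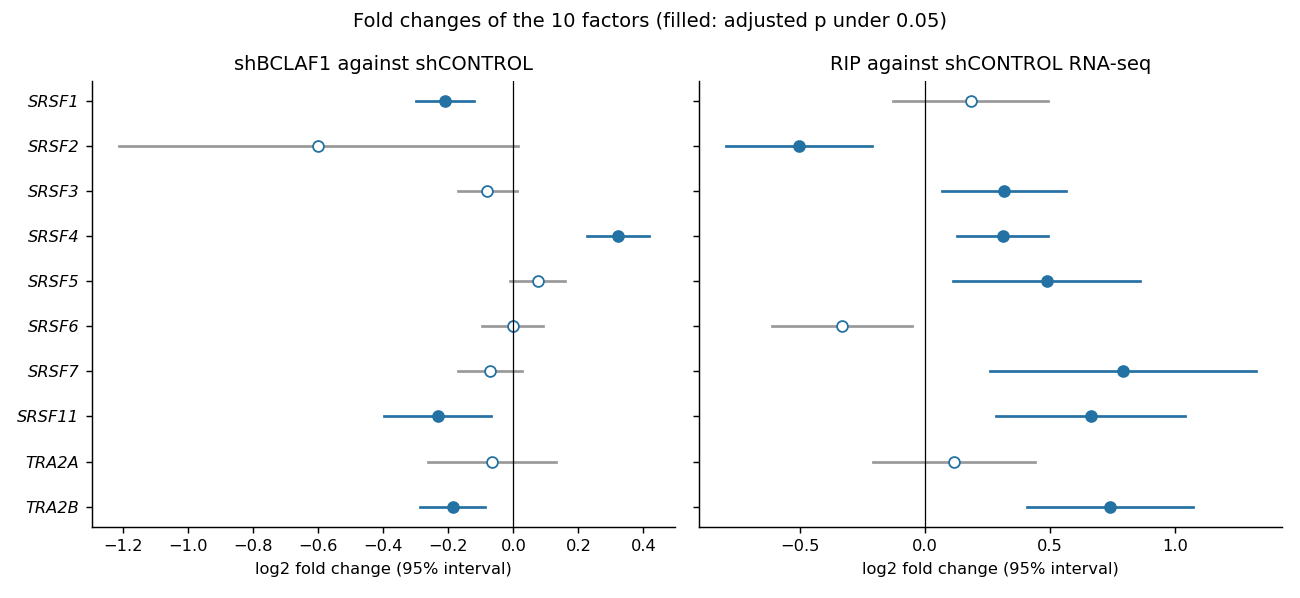
Log2 fold changes (horizontal axes, with 95% intervals from the edgeR fits) of the 10 factors after knock-down (left) and in the RIP (right), with filled points where the adjusted p was under 0.05. After knock-down SRSF4 alone passed above 0, and SRSF1, SRSF11 and TRA2B passed below it, while in the RIP 6 factors passed above 0 and SRSF2 below it.

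In order of the knock-down change, the members ran from SRSF2 through SRSF11, SRSF1, TRA2B, SRSF3, SRSF7, TRA2A, SRSF6 and SRSF5 to SRSF4. The intervals of all neighbours in that order overlapped, apart from SRSF5 and SRSF4. Groups that did not overlap were found for 2 members that were higher (SRSF4, SRSF5) and 5 that were lower (SRSF1, SRSF2, SRSF3, SRSF11, TRA2B), where 24.2% of all genes tested were higher without overlap and 25.1% lower. The 10 genes together took 0.260% ± 0.00336 of all counts in shCONTROL libraries against 0.243% ± 0.00611 with the hairpin against BCLAF1 (SD, n = 3 each), with 0.256% to 0.263% in the former and 0.237% to 0.249% in the latter. Within that sum the mean share of SRSF4 was 4.04% ± 0.173 and then 5.58% ± 0.223, and that of SRSF2 was 12.7% ± 0.250 and then 9.21% ± 2.94 (SD, n = 3 each). SRSF2, which did not pass its own test, held 11.1%, 5.83% and 10.7% of the sum in shBCLAF1 replicates 1, 2 and 3. No other member's mean share fell as much, and the sum without SRSF2 was not computed.

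The other SR proteins of the table were also followed. SRSF8, an SRSF2-related retrogene product, measured 25.3, 22.8 and 24.7 CPM in shCONTROL and 38.9, 30.5 and 31.0 in shBCLAF1 (log2 fold change 0.47, edgeR adjusted p = 0.0208). SRSF9, a close relative of SRSF1, measured 125, 108 and 112 CPM against 173, 132 and 147 (log2 fold change 0.39, edgeR adjusted p = 0.0369). SRSF10, which represses splicing when dephosphorylated, measured 241, 238 and 234 CPM against 200.1, 199 and 181 (log2 fold change -0.29, edgeR adjusted p = 0.00588). SRSF8 and SRSF9 rose and SRSF10 fell, each with groups that did not overlap, while SRSF12 was listed at 0 in all 9 libraries. The SRSF8 call was lost without shCONTROL replicate 2 or 3 (edgeR adjusted p = 0.0583 and 0.0541). The SRSF9 call was lost without shCONTROL replicate 2 or 3 or shBCLAF1 replicate 1 or 3 (0.103, 0.103, 0.0660 and 0.0752). All 3 calls were lost in the fit of all 9 libraries (edgeR adjusted p = 0.0541, 0.189 and 0.117).

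The second comparison set the RNA precipitated with BCLAF1 from shCONTROL cells against the RNA-seq of shCONTROL cells, which were separate samples. The SR factors ranged from below to above their RNA-seq levels. TRA2B, SRSF7 and SRSF11 were 167%, 173% and 158% of shCONTROL, SRSF5, SRSF3 and SRSF4 were 140.1%, 125% and 124%, and SRSF2 was 70.5%. Of the 10 members 6 were higher and 1 lower in the RIP (edgeR, 16727 genes tested), where 24.6% of all genes were called higher and 24.7% lower, 49.2% in all. Groups that did not overlap were found for 6 members that were higher and 2 that were lower (SRSF2, SRSF6), where 31.9% and 35.1% of all genes tested did so. No member reached a log2 fold change of 1 in size, which 11.0% of genes did as higher and 13.5% as lower at that adjusted p. The median log2 fold change was 0.31 over the members and -0.05 over all genes.

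Scaling by library totals shifted the all-gene median log2 fold change by -0.11 and left 1 member higher (TRA2B) and 2 lower (SRSF2, SRSF6). Relative to the median of all genes the members hardly moved with the scaling, TRA2B standing at 0.79 above it both ways and SRSF2 at -0.45 both ways. Across RIP replicates the members' levels had a coefficient of variation of 3.35% (SRSF4) to 29.8% (SRSF7). RIP replicate 2 was the lowest of its group for 8 of the 10 members, and for 39.2% of all genes tested. The reference was RNA-seq and not a mock precipitation, so recovery with BCLAF1 and background of the precipitation cannot be told apart.

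TRA2B had the smallest adjusted p of the members in the RIP. Its RIP levels were 681, 523 and 724 CPM, all above the 384 CPM of the highest shCONTROL library. The log2 fold change was 0.74 (95% interval 0.41 to 1.07, edgeR adjusted p = 0.00555), and the call held in all 13 other fits without a minimum fold change, with log2 fold changes from 0.63 to 0.86. TRA2A, at 89.2, 77.5 and 66.6 CPM, overlapped its shCONTROL libraries (log2 fold change 0.12, 95% interval -0.21 to 0.44, edgeR adjusted p = 0.496).

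SRSF7 measured 276, 182 and 339 CPM in the RIP, all above shCONTROL, and had the highest estimate and the widest interval of the members. Its log2 fold change was 0.79 (95% interval 0.26 to 1.32, edgeR adjusted p = 0.0256). SRSF3, at 449.5, 411 and 499.5 CPM, was also above its shCONTROL libraries, with a log2 fold change of 0.32 (95% interval 0.07 to 0.56, edgeR adjusted p = 0.0423). SRSF1, at 567, 439 and 579.6 CPM, overlapped shCONTROL through RIP replicate 2. Its log2 fold change was 0.18 (95% interval -0.13 to 0.49, edgeR adjusted p = 0.275), and without that library it was 0.29 and passed (edgeR adjusted p = 0.0190). The SRSF7 call was lost without shCONTROL replicate 1, 2 or 3 or RIP replicate 1 (edgeR adjusted p = 0.0769, 0.0802, 0.0853 and 0.0689), and the SRSF3 call likewise (0.104, 0.141, 0.149 and 0.0679).

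SRSF11 measured 386, 256 and 329 CPM in the RIP, above every shCONTROL library. The log2 fold change was 0.66 (95% interval 0.28 to 1.04, edgeR adjusted p = 0.0141). It was lost without shCONTROL replicate 1 or 3 (edgeR adjusted p = 0.0564 and 0.0620) and with library totals (0.0529).

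SRSF4 was at 127, 133 and 125 CPM in the RIP, the narrowest spread of the members there, and above all shCONTROL libraries. The log2 fold change was 0.31 (95% interval 0.13 to 0.49, edgeR adjusted p = 0.0154). SRSF5, at 297, 202 and 283 CPM, was also above shCONTROL, with a log2 fold change of 0.49 (95% interval 0.11 to 0.86, edgeR adjusted p = 0.0397). SRSF6 differed from both in direction. It was at 283, 216 and 245 CPM, below every shCONTROL library, with a log2 fold change of -0.33 (95% interval -0.61 to -0.05) that did not pass (edgeR adjusted p = 0.0539), but passed without RIP replicate 1 (-0.43, adjusted p = 0.0168) and in DESeq2 (adjusted p = 0.0143). The SRSF4 call was lost without shCONTROL replicate 1, 2 or 3 (edgeR adjusted p = 0.0748, 0.0721 and 0.0562). The SRSF5 call was lost without any of these (0.0983, 0.123 and 0.116) and without RIP replicate 1 or 3 (0.104 and 0.0908).

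SRSF2 was the sole member called lower in the RIP. It stood at 259, 195 and 237 CPM there, against 312 CPM in the lowest shCONTROL library. The log2 fold change was -0.50 (95% interval -0.80 to -0.21, edgeR adjusted p = 0.0150). The call was lost without shCONTROL replicate 1 or 2 (edgeR adjusted p = 0.0626 and 0.0533) and in the fit of all 9 libraries (0.119). With shCONTROL and shBCLAF1 averaged as the reference, the log2 fold change was -0.19 (edgeR adjusted p = 0.451). The overlapping MFSD11 held 543, 247 and 890 counts in the RIP (log2 fold change -0.82, edgeR adjusted p = 0.209).

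Of the SR proteins outside the 10, SRSF9 was the one past a log2 fold change of 1. It measured 322, 212 and 318 CPM in the RIP, or 245% of shCONTROL (log2 fold change 1.30, 95% interval 0.86 to 1.73, edgeR adjusted p = 0.00199). SRSF10 was at 372, 284 and 366 CPM (log2 fold change 0.51, edgeR adjusted p = 0.0145), and lost its call without shCONTROL replicate 1, 2 or 3 (0.0547, 0.0598 and 0.0633). SRSF8 was at 30.0, 23.2 and 28.3 CPM and did not pass (log2 fold change 0.15, edgeR adjusted p = 0.339). Both comparisons use the same shCONTROL libraries, so the members' changes in them are not independent. Side by side, the log2 fold changes after knock-down and in the RIP were 0.32 and 0.31 for SRSF4, -0.60 and -0.50 for SRSF2, and -0.19 and 0.74 for TRA2B.

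Counts of 2 members from the same library need no scaling between libraries, so 5 pairs were compared as ratios, with the pairs chosen when the values were known. Of the closest relatives, TRA2A held 20.5, 17.9 and 17.5 counts per 100 counts of TRA2B in shCONTROL, against 20.0, 18.3 and 22.8 with shBCLAF1, while RIP libraries held 13.1, 14.8 and 9.20. The RIP values were all below the RNA-seq values. SRSF7 per 100 counts of SRSF3 was 42.2 ± 0.806 in shCONTROL, with shBCLAF1 at 42.4 ± 0.671 and the RIP at 57.9 ± 12.2 (SD, n = 3 each). SRSF4 per 100 counts of SRSF6 was 33.3 ± 1.52 in shCONTROL, below every library of shBCLAF1 (41.7 ± 2.18) and of the RIP (52.6 ± 8.62; SD, n = 3 each).

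SRSF5 per 100 counts of SRSF6 was 59.5 ± 1.07 in shCONTROL, against 62.8 ± 1.56 with shBCLAF1 and 104.7 ± 10.9 among RIP libraries (SD, n = 3 each). SRSF2 per 100 counts of SRSF1 was 71.4, 72.2 and 66.7 in shCONTROL, with shBCLAF1 libraries at 66.4, 32.0 and 63.1 and RIP libraries at 45.6, 44.3 and 41.0. The exact two-sided permutation test against shCONTROL gave p = 0.1, the smallest that 3 against 3 allow, for the 5 ratios in the RIP and for SRSF4, SRSF5 and SRSF2 as numerators after knock-down, and 0.125 after Benjamini-Hochberg adjustment over the 10 comparisons. None could pass, other pairs of genes were not computed, and the values are given as a description. For TRA2A per TRA2B and SRSF7 per SRSF3 after knock-down the exact test gave p = 0.4 and 0.8, and the values overlapped.

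**Figure D3:**
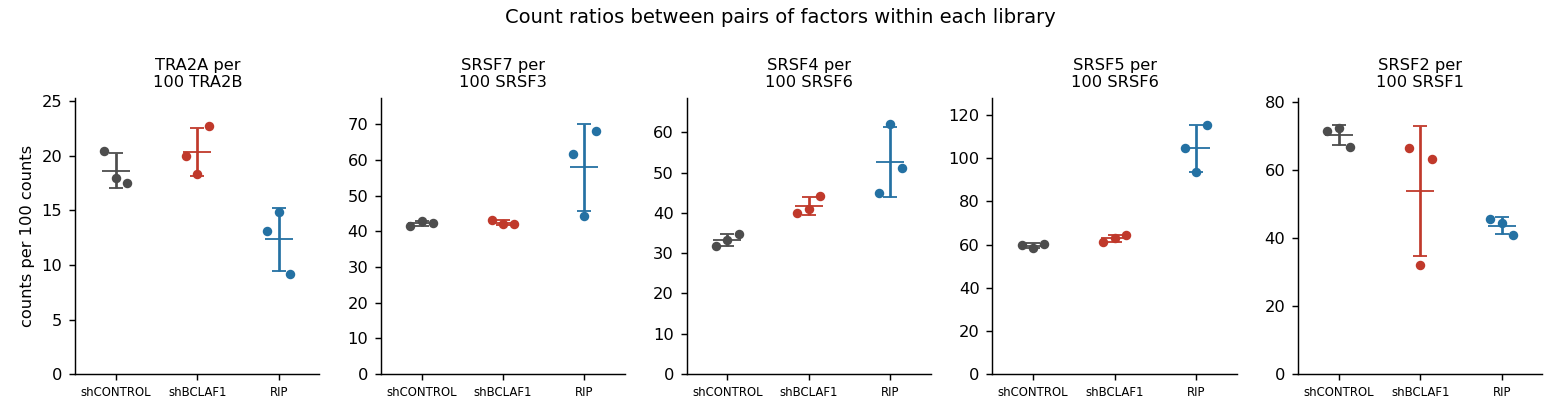
Counts of 1 factor per 100 counts of another in the same library (vertical axes, from 0), with 1 point per library and the mean and SD of 3 libraries as bars. SRSF5 per 100 SRSF6 was 59.5 in shCONTROL and 104.7 in the RIP on average, and SRSF2 per 100 SRSF1 was at 32.0 in shBCLAF1 replicate 2, apart from the other two.

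Pseudogenes can share reads with the members. SRSF3P1, SRSF3P4 and SRSF6P2 passed the filter on low counts, at 2.27, 0.564 and 8.68 CPM on average in shCONTROL. None passed the test in either comparison (edgeR adjusted p from 0.411 to 0.994).

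The genes that act on or beside SR proteins were counted in lists, read against the background shares above. Of 11 kinases and phosphatase subunits of SR proteins tested after knock-down, 2 were higher and 3 lower, and in the RIP 8 of 12 were higher and 0 lower (edgeR), their median log2 fold change being 0.97 against -0.05 over all genes. SRPK2, a cytoplasmic kinase that primes SR proteins for nuclear import, had the smallest adjusted p there. It stood at 31.8, 31.9 and 30.5 CPM in shCONTROL and 84.3, 79.3 and 91.3 in the RIP (log2 fold change 1.43, edgeR adjusted p = 2.24e-04). CLK1 and CLK2, nuclear kinases that release SR proteins from speckles, had RIP log2 fold changes of 1.22 and 0.97. After knock-down DYRK1A and CLK3 rose by 0.22 and 0.21 on the log2 scale, and the phosphatase subunit PPP1CC fell by 0.26. SRPK2 and CLK1 were the other 2 lower calls after knock-down (-0.40 and -0.34). SRPK2 lost its call without shCONTROL replicate 1 or 2 or shBCLAF1 replicate 2 or 3 (edgeR adjusted p from 0.0526 to 0.0591), and CLK1 without shBCLAF1 replicate 1, 2 or 3 (0.0534 to 0.0667) and in the fit of all 9 libraries (0.121).

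Of 22 SR-related proteins of the spliceosome and speckles, 14 were higher and 0 lower in the RIP (edgeR), their median log2 fold change being 0.54. SRRM1, a splicing coactivator, led with 1.61, beside 0.83 for the cyclin CCNL2 and 0.82 for ACIN1 of the ASAP complex. After knock-down 4 of the 22 were higher and 3 lower, with SCAF8 at 0.17, the U1-associated LUC7L3 at -0.21 and SCAF11 at -0.14 on the log2 scale. SCAF11 lost its call without shCONTROL replicate 1 or 3 (edgeR adjusted p = 0.0685 and 0.0582). In the RIP, 4 of the 12 kinases and phosphatase subunits and 8 of these 22 genes did not pass.

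hnRNP proteins are known as opponents of SR proteins at many exons. After knock-down 11 of 24 were lower and 2 higher, their median log2 fold change being -0.19, and in the RIP 9 were lower and 3 higher, with a median of -0.33. HNRNPF, a binder of G-rich sequence, measured 338, 329 and 350.0 CPM in shCONTROL, 270.0, 267 and 249.6 in shBCLAF1, and 80.1, 88.2 and 69.6 in the RIP. The 3 groups of HNRNPF libraries did not overlap, with log2 fold changes of -0.37 after knock-down and -2.10 in the RIP (edgeR adjusted p = 0.00214 and 2.24e-04). HNRNPU and PTBP1 fell by 0.35 and 0.27 after knock-down, and in the RIP PTBP3 and HNRNPH2 stood at -1.71 and -1.06 on the log2 scale. PTBP3 and HNRNPH2 were the 2 higher calls after knock-down (0.34 and 0.23), and PTBP3 lost that call without shCONTROL replicate 1 or 3 or shBCLAF1 replicate 1 or 2 (edgeR adjusted p from 0.0634 to 0.0891). Both calls were lost in the fit of all 9 libraries (edgeR adjusted p = 0.0619 for PTBP3 and 0.0594 for HNRNPH2).

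**Figure D4:**
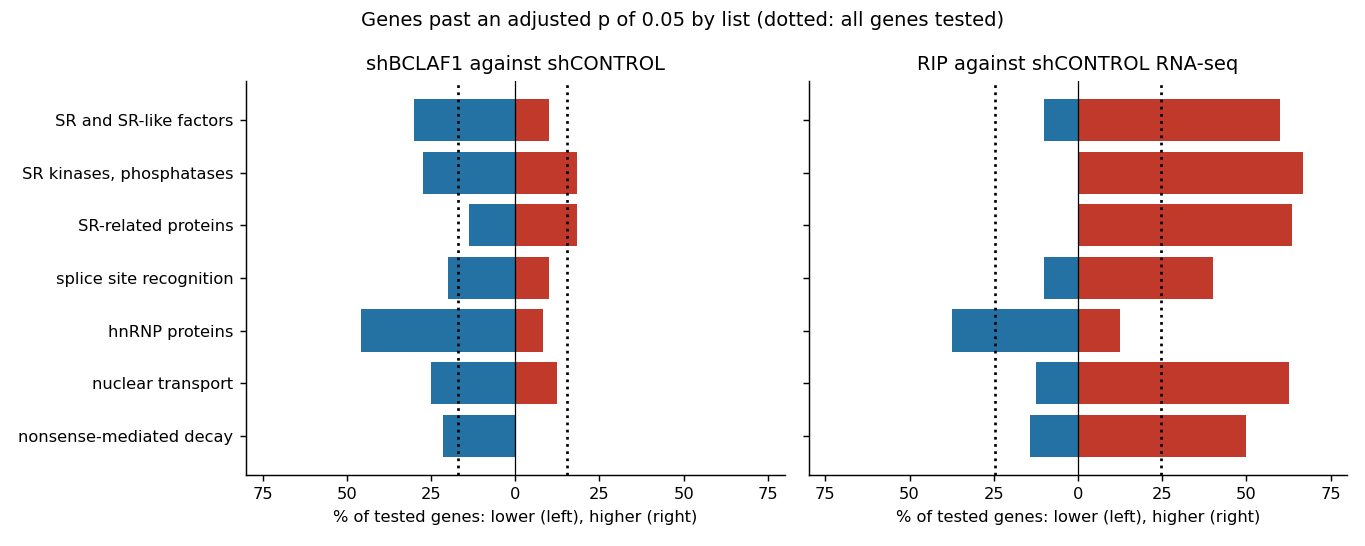
Share of the tested genes of each list past an adjusted p of 0.05 in edgeR (horizontal axes, in percent), lower to the left in blue and higher to the right in red, after knock-down (left panel) and in the RIP (right panel). Dotted lines mark the shares over all genes tested, 15.5% higher and 16.9% lower after knock-down and 24.6% and 24.7% in the RIP.

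Of 10 genes of splice site recognition, 1 was higher and 2 lower after knock-down, and 4 were higher and 1 lower in the RIP. SNRPA, the A protein of the U1 snRNP, was lower in both (log2 fold changes -0.32 and -0.49), ZRSR2 rose by 0.55 after knock-down, and SF3B1 and SF1 were at 0.80 and 0.98 in the RIP. PRPF8 fell by 0.22 after knock-down, a call lost without shCONTROL replicate 1 or 3 or shBCLAF1 replicate 2 (edgeR adjusted p = 0.0912, 0.0786 and 0.0631). Of 8 genes of the nuclear transport of SR proteins and their mRNPs, 5 were higher and 1 lower in the RIP. There the export receptor NXF1 stood at 1.10, the helicase DDX39B at 1.00 and the export adaptor ALYREF at -1.42. After knock-down 1 was higher (NXF1, 0.18) and 2 lower (DDX39B, -0.22, and THOC2, -0.21). NXF1 lost its knock-down call without any shCONTROL library or shBCLAF1 replicate 2 (edgeR adjusted p from 0.0589 to 0.108), and THOC2 without any shCONTROL library or shBCLAF1 replicate 1 (0.0821 to 0.112).

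The last list held 14 genes of nonsense-mediated decay, the pathway that destroys SR transcripts with poison exons, and of the exon junction complex. After knock-down 0 were higher and 3 lower (edgeR, Benjamini-Hochberg), where 15.5% of all genes were called higher and 16.9% lower. Their median log2 fold change was -0.0007 against 0.02 over all genes, and a shift of the list as a whole was not tested. RBM8A, of the exon junction complex, fell by 0.45 on the log2 scale (edgeR adjusted p = 0.00200), UPF2 by 0.21 and CASC3 by 0.15. UPF2 lost its call without shCONTROL replicate 3 (edgeR adjusted p = 0.0634), and CASC3 without any shCONTROL library or shBCLAF1 replicate 2 or 3 (0.0520 to 0.115). In the RIP 7 of the 14 were higher and 2 lower, with UPF2 and SMG1 at 1.11 and 1.00 on the log2 scale.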

How the data were processed

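RNA of MOLM-13 cells was measured in 9 libraries, 3 each of shCONTROL, shBCLAF1 and RIP. The authors deposited 1 table of estimated counts (expected counts) per gene, not normalized. The submitters' processing notes name STAR 2.7.11b, StringTie 2.2.3 and hg38, and the annotation and counting step are not given in the sources used here. The values were whole numbers. The entry that named no gene (2.18% to 3.75% of the counts in the 8 libraries with a value) was left out. Totals were 25819144 to 36635268, so 3 counts, taken as a floor for counting error only, equalled 0.0819 to 0.116 CPM.

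Each comparison was fitted on its own 6 libraries with edgeR 4.0.16 in R 4.3.3: default filter on low counts, TMM scaling, prior count 2, a quasi-likelihood F-test on a model of group alone, Benjamini-Hochberg adjustment over all genes tested, threshold 0.05. Errors of log2 fold changes came from the coefficient and its F statistic, and 95% intervals from the moderated degrees of freedom. Levels are CPM on 1 TMM scale over all 9 libraries, as mean ± SD. The fits were tested on simulated data, in which a small part of the genes had log2 changes of 1 or 2 in size. No member changed by that much, so the simulation did not cover changes of the members' size. Alternatives were DESeq2 1.42.0, other scalings, no filter, all 9 libraries, a replicate block, a minimum log2 fold change of 1 and leaving out each library. The members and lists were chosen with earlier results of these data known. All members and the other SR proteins were named, as were BCLAF1, pseudogenes of members past the filter, up to 3 genes of each other list with the smallest adjusted p, and the 5 genes most like the members. Some genes that these rules would name are not reported here.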

Additional observations from a re-analysis of the deposited data

How the results depend on the processing

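No result named here changed direction while passing the test under any alternative. After knock-down, the 2625 higher and 2859 lower genes became 1129 and 1318 in the fit of all 9 libraries and 301 and 380 with a minimum log2 fold change of 1. Among the members, 1 was higher and 3 lower. This became 2 higher with library totals, and 0 lower in the 9-library edgeR fit (1 at an unadjusted p under 0.05). DESeq2, run on the 6 libraries of the comparison and not on all 9, gave 3 lower. With the minimum change the members called became 0 and 0, since no member reached 1 in size in edgeR or DESeq2. Leaving out 1 library gave 1 higher and 1 to 4 lower members, and 1975 to 2642 higher and 2171 to 2730 lower genes. In the RIP, the 4107 higher and 4124 lower genes became 1846 and 2253 with the minimum change. The 6 higher and 1 lower members became 1 and 2 with library totals, 5 and 1 with RLE scaling, and 0 and 0 with the minimum change. In DESeq2, 2 were lower. Leaving out 1 library gave 1 to 7 higher and 0 to 2 lower members in edgeR. The 0 arose without shCONTROL replicate 1 or 2, each with 1 lower at an unadjusted p under 0.05. Leaving out a library also leaves fewer samples to estimate the spread, and the cause of the other shifts was not tested. On effective library sizes the share of counts of the 10 genes was 0.256% in shCONTROL and 0.231% in shBCLAF1.

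Same-numbered libraries did not deviate together (correlations 0.0140, 0.0665 and 0.0162 after knock-down, and -0.0227, 0.00713 and -0.00334 in the RIP), nor did every library correlate best with its own number. With the replicate number as a block, 1 member was higher and 3 lower after knock-down, and 2 were higher and 1 lower in the RIP, with 2271 and 2538 genes after knock-down and 3244 and 3262 in the RIP. Of the 21 other listed genes named in each comparison, 17 lost their knock-down call in the 9-library fit, and 0 lost their RIP call under any alternative by edgeR or DESeq2.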

Other observations

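Of 12 genes whose splicing SR proteins are known to regulate, 3 were higher and 3 lower after knock-down, and 3 were higher and 4 lower in the RIP. Over all genes tested, 15.5% were called higher and 16.9% lower after knock-down, and 24.6% and 24.7% in the RIP. The median log2 fold change of the list was -0.06 in both, against 0.02 over all genes after knock-down and -0.05 in the RIP. The pyruvate kinase gene PKM, the initiator caspase gene CASP9 and the BCL2 family gene MCL1 rose by 0.32, 0.52 and 0.18 on the log2 scale after knock-down (edgeR adjusted p = 0.00542, 0.00658 and 0.0227). The MCL1 call was lost without shCONTROL replicate 1 or 3 or shBCLAF1 replicate 1 or 2 (0.0508, 0.0550, 0.0502 and 0.0731). In the RIP, CASP9 and MCL1 were lower, at -1.33 and -0.72, and the methyltransferase gene EZH2 was higher, at 1.32. Counts per gene do not show which isoforms were made.

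The genes most like the members over the 9 libraries were CDKN1B, DIS3, RSRC1, USP33 and AFG2A, out of 11846 candidates. Likeness was the root mean square difference, in log2 CPM centred on each gene's mean, from the median profile of the 10 members, and it was 0.0452 to 0.0592 for these genes. Of the members themselves SRSF3 was nearest to that profile (0.0380) and SRSF2 farthest (0.442), with 6180 of the candidates nearer than SRSF2.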
